A study of Mus musculus with 12 samples.

Results

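Nitric oxide and arginine metabolism in the mouse kidney cortex was described through 10 genes chosen by name: Nos2, Nos3, Gch1, Slc7a2, Arg2, Ass1, Asl, Gatm, Ddah1 and Ddah2. All 10 were found among the 47719 genes of the deposited table by Ensembl identifier, with symbols from GENCODE mouse release M21. The study set chronic ethanol feeding and an acute injection of lipopolysaccharide (LPS, a bacterial cell wall component) against each other in male C57BL6/J mice 8 weeks old, with RNA sequencing of cortex taken 4 h after the injection. The EtOH4hLPS group received a Lieber-DeCarli liquid diet with ethanol raised in steps to 6% and LPS from E. coli at 10 mg/kg into the peritoneum. The EtOH group received the same ethanol diet and saline. The PF4hLPS group was pair-fed a maltose-dextrin diet of equal calories and received the same LPS dose, and the PF group was pair-fed and received saline. Feeding lasted 6 weeks in all 4 groups, each of which had 3 libraries. The labels do not say whether each library came from a separate mouse, and the p-values therefore speak only of the spread among the libraries at hand.

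Nitric oxide synthases make nitric oxide and citrulline from arginine and need the cofactor tetrahydrobiopterin (BH4). Argininosuccinate synthase and argininosuccinate lyase turn citrulline back into arginine, and the proximal tubule of the kidney, which holds both enzymes, is a main source of circulating arginine. Arginase and the amidinotransferase of creatine synthesis use the same arginine, and the dimethylarginine dimethylaminohydrolases break down asymmetric dimethylarginine (ADMA), a natural inhibitor of the synthases.

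Values are FPKM, fragment counts scaled for transcript length and library size. A gene was tested where it reached 1 FPKM in at least 3 of the 12 libraries, which 14109 genes and 9 of the 10 members did; Nos3 did not. Nos2 and Gch1 reached 1 FPKM in the LPS libraries only, so both entered through the groups in which they were high. The fold changes below are differences of log2(FPKM + 1) from limma with their standard errors, and this scale understates the change of genes near or under 1 FPKM. No read counts were given; from the steps of the low values, depth ranged from 0.490 to 0.763 of that of the first PF library in the 6 LPS libraries and from 0.722 to 1.20 in the 6 saline libraries. Lrp2, the endocytic receptor of the proximal tubule, was between 305.7 and 676.8 FPKM in all 12 libraries. Libraries differed in how far their deviations from the group mean followed the GC content of the transcripts, measured as a slope across tested genes in log2 units per 10% GC. The lowest slope of each group was -0.33 in EtOH4hLPS library 1, -0.08 in EtOH library 3, -0.45 in PF4hLPS library 2 and -0.27 in PF library 1, against -0.03 to 0.23 in the other 8 libraries. EtOH library 3 was close to the rest, and the 3 others stood apart from their groups.

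The 10 genes spanned a wide range of levels. Ass1 was the highest in every group, followed by Gatm, and the 3 libraries of each did not overlap with those of the next gene in any group. Ddah1 and Asl ranked 3 and 4 with overlapping libraries, at group means of 97.4 to 123.4 FPKM for Ddah1 and 79.1 to 89.6 FPKM for Asl. The remaining 6 genes stood at 21.3 FPKM or less in every library. In the LPS groups Arg2 ranked 5 and Nos2 ranked 6; their libraries did not overlap in EtOH4hLPS and overlapped in PF4hLPS. Nos2 was last in both saline groups, where its libraries overlapped with those of its neighbour, Gch1 in EtOH and Nos3 in PF.

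**Figure D1:**
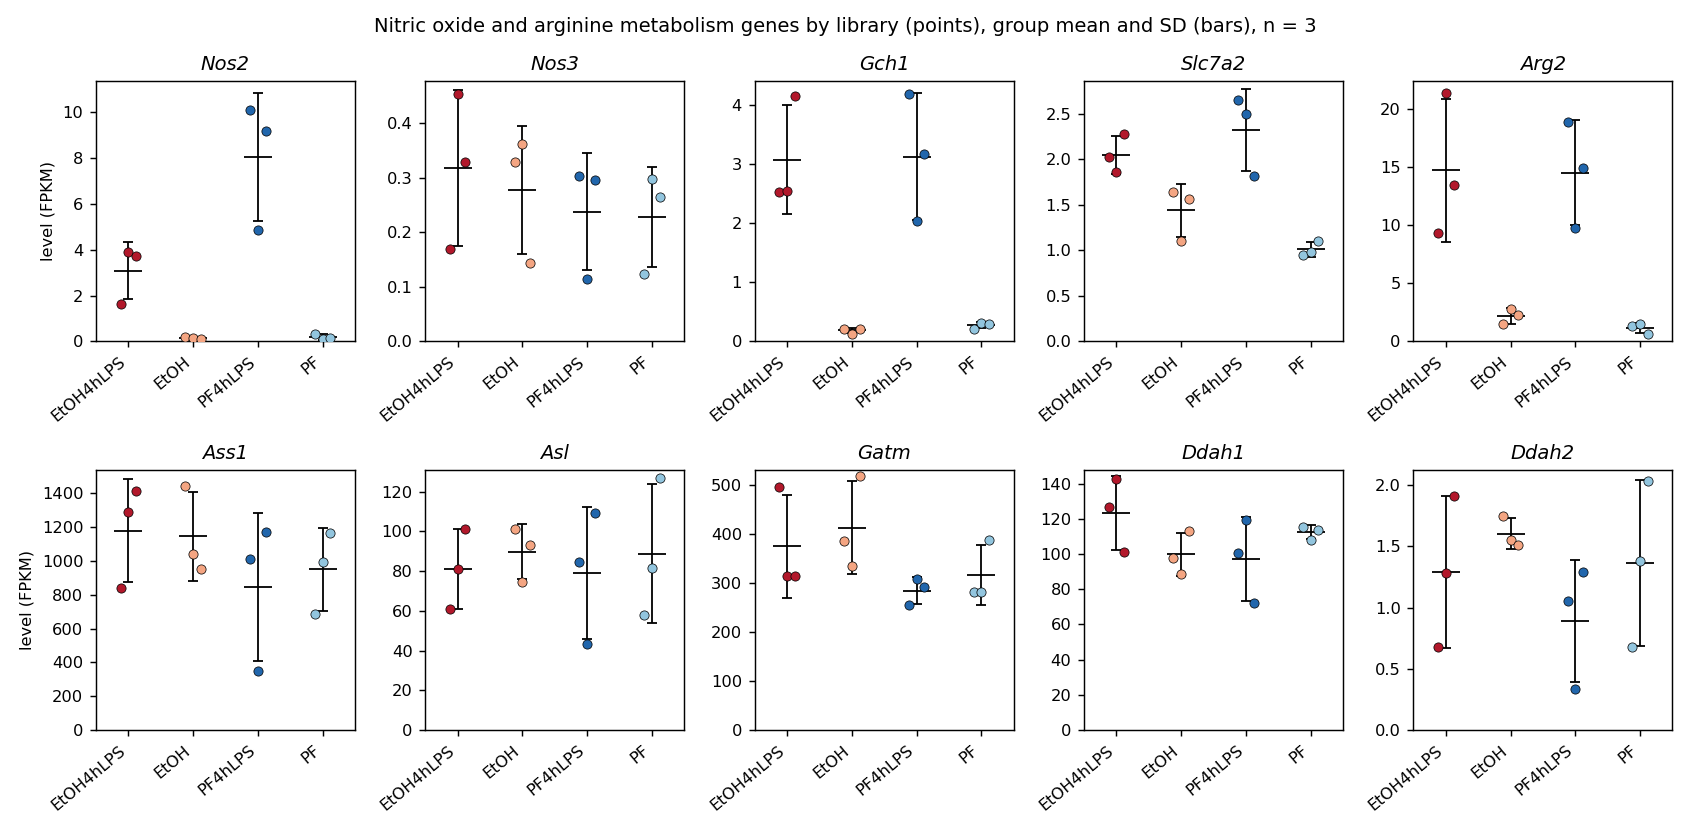
Level in FPKM (y axis, linear, own scale for each gene) of the 10 genes in the libraries of the EtOH4hLPS, EtOH, PF4hLPS and PF groups (points), with the group mean and SD of 3 libraries (bars). Nos2, Gch1 and Arg2 were higher in every LPS library than in any saline library, while the libraries of Ass1, Asl and Ddah1 overlapped across the 4 groups. Those of Ddah2 overlapped in every comparison made, but not between EtOH and PF4hLPS.

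LPS raised Nos2, Gch1 and Arg2 on both diets and Slc7a2 on the pair-fed diet. These are the inducible synthase, the enzyme that starts BH4 synthesis, an arginine-consuming enzyme and an arginine transporter. The genes of arginine resynthesis, creatine synthesis and ADMA breakdown did not pass the test. Against PF, 4 of the 9 tested members rose in PF4hLPS and 0 fell, where 11.3% of all tested genes rose and 6.89% fell at the same adjusted p of 0.05 (limma, Benjamini-Hochberg over all 14109 genes). Against EtOH, 3 of 9 rose in EtOH4hLPS and 0 fell, where 10.7% of all tested genes rose and 6.39% fell. The libraries of 4 members (Nos2, Gch1, Slc7a2 and Arg2) were all higher with LPS than with saline on each diet, as were those of 18.8% of genes in EtOH4hLPS against EtOH and 18.5% in PF4hLPS against PF. Nos2 and Gch1 entered the test through the LPS groups, and the members were chosen with earlier results of these data known. These counts of members are therefore a description and no test of the list. The median log2 fold change of the 9 tested members was -0.14 in PF4hLPS against PF and 0.30 in EtOH4hLPS against EtOH, beside medians of -0.01 and 0.02 over all tested genes. When every library was scaled to the same FPKM total, the median of all genes moved to -0.40 in PF4hLPS against PF and to -0.26 in EtOH4hLPS against EtOH. Nos2, Gch1 and Arg2 kept their calls under that scaling on both diets, while Slc7a2 lost its call. The share of all genes that rose or fell turned with it, to 858 higher and 2565 lower in place of 1589 higher and 972 lower for PF4hLPS against PF, and to 974 higher and 1772 lower in place of 1504 higher and 902 lower for EtOH4hLPS against EtOH.

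Nos2 (ENSMUSG00000020826, chr11:78920787-78960254 on the plus strand, mm10) encodes the inducible nitric oxide synthase, which is low in resting tissue and made after inflammatory stimuli. It was at 1.64, 3.90 and 3.71 FPKM in the EtOH4hLPS libraries and at 0.170, 0.151 and 0.116 FPKM in the EtOH libraries. On the pair-fed diet it was at 10.1, 4.88 and 9.17 FPKM in the PF4hLPS libraries and at 0.327, 0.110 and 0.148 FPKM in the PF libraries. The LPS and saline libraries did not overlap on either diet, and all 3 PF4hLPS libraries were above all 3 EtOH4hLPS libraries. Nos2 rose by a log2 fold change of 1.78 ± 0.27 (SE, adjusted p = 0.000705) in EtOH4hLPS against EtOH and 2.87 ± 0.27 (adjusted p = 1.397e-05) in PF4hLPS against PF. The ratio of the mean FPKM was 21.2 in EtOH4hLPS over EtOH and 41.3 in PF4hLPS over PF.

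Nos3 (ENSMUSG00000028978, chr5:24364810-24384474, plus strand), the endothelial synthase, reached at most 0.453 FPKM. Its values were 0.169, 0.453 and 0.329 FPKM in EtOH4hLPS, 0.328, 0.361 and 0.144 FPKM in EtOH, 0.303, 0.115 and 0.295 FPKM in PF4hLPS, and 0.124, 0.297 and 0.264 FPKM in PF. All 4 groups overlapped. Tested without the filter on low values, its log2 fold change was 0.04 ± 0.12 (adjusted p = 0.971) in EtOH4hLPS against EtOH and 0.01 ± 0.12 (adjusted p = 1.0) in PF4hLPS against PF. The antisense gene Gm15587 spans 17423 bases of Nos3 on the other strand and reached at most 0.334 FPKM. The kit keeps strand, but no source used here gives the strand setting of the quantification, and reads of overlapping genes may not have been told apart.

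Gch1 (ENSMUSG00000037580, chr14:47153895-47189413, minus strand) encodes GTP cyclohydrolase, the first and rate-limiting enzyme of BH4 synthesis. It was at 2.53, 2.55 and 4.15 FPKM in EtOH4hLPS and at 0.215, 0.128 and 0.212 FPKM in EtOH. It was at 4.18, 2.03 and 3.16 FPKM in PF4hLPS and at 0.215, 0.311 and 0.294 FPKM in PF. The LPS libraries lay far above the saline libraries on both diets, and the EtOH4hLPS and PF4hLPS libraries overlapped. Gch1 rose by 1.76 ± 0.21 on the log2 scale (adjusted p = 0.000104) in EtOH4hLPS against EtOH and 1.66 ± 0.21 (adjusted p = 0.000154) in PF4hLPS against PF, with ratios of mean FPKM of 16.6 and 11.4.

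Of the 4 members that LPS raised, Gch1 alone had an entry in the RefSeq promoter table (GRCm38.p6), as did 4 members that did not pass the test: Ass1, Gatm, Ddah1 and Ddah2. The 250 bases before the start of Gch1 (chr14:47189414-47189663, minus strand) are shown beside those of Ddah2 (chr17:35058785-35059034, plus strand). Ddah2 was not called in any comparison, and it is shown because its window held a partly different set of matches. Capitals mark matches to 8 motifs searched on both strands of the 250 bases. These were the NF-kB consensus, the core of the interferon-stimulated response element (GAAANNGAAA), the gamma-activated site (TTCNNNGAA), the CCAAT box, the core of the cAMP response element (TGACG), the TATA box (TATAAA), the GC box (GGGCGG) and the E-box (CACGTG).
Gch1: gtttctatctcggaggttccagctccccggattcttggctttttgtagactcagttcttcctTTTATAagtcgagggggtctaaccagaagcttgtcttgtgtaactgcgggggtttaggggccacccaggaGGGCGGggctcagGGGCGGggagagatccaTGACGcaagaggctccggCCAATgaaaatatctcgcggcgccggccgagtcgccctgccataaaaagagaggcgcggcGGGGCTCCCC
Ddah2: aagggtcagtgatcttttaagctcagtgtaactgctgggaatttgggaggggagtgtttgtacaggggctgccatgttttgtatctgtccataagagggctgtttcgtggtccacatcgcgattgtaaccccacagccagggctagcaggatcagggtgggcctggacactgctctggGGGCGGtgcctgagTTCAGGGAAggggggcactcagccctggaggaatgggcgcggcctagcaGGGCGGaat
In the Gch1 window the NF-kB consensus matched the last 10 bases before the start on both strands. A CCAAT box began 70 bases and a cAMP element core 88 bases before the start, GC boxes began at 118 and 105 bases, and a TATA box on the other strand at 188 bases. The Ddah2 window held a gamma-activated site from 58 bases and GC boxes from 72 and 9 bases before the start. Among 32851 promoter windows of the same length, 7.25% held the NF-kB consensus, 33.8% a CCAAT box, 17.8% a cAMP element core, 12.4% a TATA box, 32.7% a GC box and 7.02% a gamma-activated site. GC boxes were in both windows shown. Of the windows not shown, that of Ass1 held a GC box and an E-box, that of Gatm held CCAAT boxes, and that of Ddah1 had no match marked. These matches describe letters in the windows and not bound sites.

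Slc7a2 (ENSMUSG00000031596, chr8:40862396-40922308, plus strand) encodes a cationic amino acid transporter that brings arginine into cells. It was at 2.02, 1.86 and 2.27 FPKM in EtOH4hLPS and at 1.64, 1.11 and 1.57 FPKM in EtOH. It was at 2.65, 2.49 and 1.81 FPKM in PF4hLPS and at 0.945, 0.977 and 1.10 FPKM in PF. The LPS libraries were all above the saline libraries on each diet, with a wide gap on the pair-fed diet and a narrow one on the ethanol diet. The log2 fold change was 0.33 ± 0.16 (adjusted p = 0.198) in EtOH4hLPS against EtOH, which did not pass, and 0.72 ± 0.16 (adjusted p = 0.00776) in PF4hLPS against PF. The interaction of diet and LPS, which tests the difference between the 2 responses, was -0.39 ± 0.22 (adjusted p = 0.988). With equal FPKM totals the pair-fed value was 0.41 (adjusted p = 0.147), and without the library of lowest GC slope in each group it was 0.65 (adjusted p = 0.0756), so the call ended under both.

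Arg2 (ENSMUSG00000021125, chr12:79130777-79156301, plus strand) encodes the mitochondrial arginase, which splits arginine into ornithine and urea and is the main arginase of the kidney. It was at 9.27, 21.3 and 13.5 FPKM in EtOH4hLPS and at 1.46, 2.77 and 2.26 FPKM in EtOH. It was at 18.8, 9.76 and 14.9 FPKM in PF4hLPS and at 1.32, 1.5 and 0.618 FPKM in PF. Every LPS library was above every saline library. Arg2 rose by a log2 fold change of 2.26 ± 0.31 (adjusted p = 0.00035) in EtOH4hLPS against EtOH and 2.83 ± 0.31 (adjusted p = 5.218e-05) in PF4hLPS against PF, with ratios of mean FPKM of 6.80 and 12.7. The last 285 bases of Arg2 lie over Vti1b, a gene on the other strand at 68.2 to 88.4 FPKM in 11 libraries and at 196.5 FPKM in PF4hLPS library 3. In that library Arg2 was the middle of the 3 PF4hLPS values. The liver-type arginase Arg1 reached at most 0.310 FPKM and was listed at 0 in 2 EtOH4hLPS libraries.

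**Figure D2:**
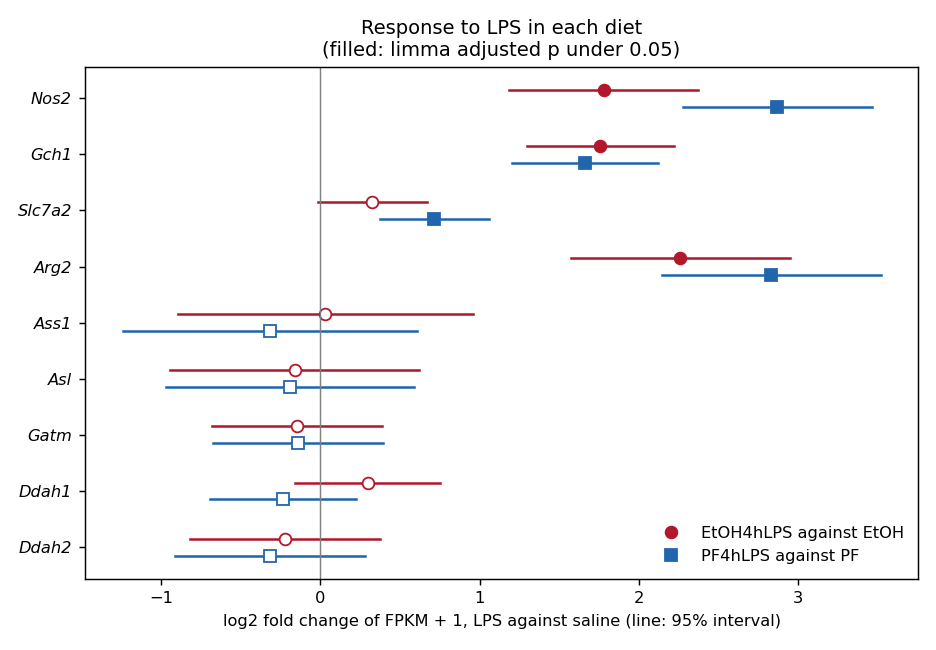
Log2 fold change of FPKM + 1 (x axis) for EtOH4hLPS against EtOH (circles) and PF4hLPS against PF (squares) of the 9 tested genes, with 95% intervals (lines) and filled symbols where the limma adjusted p was under 0.05. Nos2, Gch1 and Arg2 are filled on both diets and Slc7a2 on the pair-fed diet, and the intervals of the other 5 genes include 0.

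Ass1 (ENSMUSG00000076441, chr2:31470207-31520672, plus strand), argininosuccinate synthase, joins citrulline and aspartate. It was at 838.5, 1292 and 1413 FPKM in EtOH4hLPS, at 1444, 1043 and 952.6 FPKM in EtOH, at 1014, 346.8 and 1175 FPKM in PF4hLPS and at 687.5, 997.1 and 1168 FPKM in PF. The groups overlapped, and PF4hLPS library 2, the lowest, was the library with the lowest GC slope. The log2 fold change was 0.03 (95% interval -0.90 to 0.96) in EtOH4hLPS against EtOH and -0.32 (-1.24 to 0.61) in PF4hLPS against PF. Leaving out PF4hLPS library 2 turned the pair-fed value to 0.23. Both intervals include 0 and are over 1 log2 unit wide.

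Asl (ENSMUSG00000025533, chr5:130011258-130029247, minus strand), argininosuccinate lyase, releases arginine from the product of Ass1. It was at 60.8, 80.9 and 101.4 FPKM in EtOH4hLPS, at 101.3, 74.3 and 93.3 FPKM in EtOH, at 84.8, 43.3 and 109.3 FPKM in PF4hLPS and at 57.9, 81.7 and 126.8 FPKM in PF. The groups overlapped throughout. In log2 terms Asl differed by -0.16 (95% interval -0.94 to 0.62) in EtOH4hLPS against EtOH and -0.19 (-0.97 to 0.59) in PF4hLPS against PF. Without PF4hLPS library 2 the pair-fed value was 0.19. The level of Ass1 over that of Asl was 14.6 ± 1.21 in EtOH4hLPS, 12.8 ± 2.28 in EtOH, 10.2 ± 2.03 in PF4hLPS and 11.1 ± 1.64 in PF (SD, n = 3 each).

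Gatm (ENSMUSG00000027199, chr2:122594467-122611303, minus strand), the amidinotransferase that makes the creatine precursor from arginine and glycine, was the second highest gene. It was at 497, 314 and 315.8 FPKM in EtOH4hLPS, at 385.9, 335.5 and 518.9 FPKM in EtOH, at 254.8, 309.3 and 291.6 FPKM in PF4hLPS and at 282, 282.2 and 388.5 FPKM in PF. The log2 fold change was -0.15 (95% interval -0.68 to 0.39) in EtOH4hLPS against EtOH and -0.14 (-0.68 to 0.39) in PF4hLPS against PF. Its 3 EtOH4hLPS libraries were above its 3 PF4hLPS libraries by a narrow margin, with a log2 fold change of 0.37 ± 0.24 (adjusted p = 0.617).

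Ddah1 (ENSMUSG00000028194, chr3:145758675-145894277, plus strand) and Ddah2 (ENSMUSG00000007039, chr17:35059035-35062095, plus strand) encode the 2 enzymes named for breaking down ADMA. Ddah1 was at 126.8, 142.5 and 101.1 FPKM in EtOH4hLPS, at 97.6, 88.9 and 113 FPKM in EtOH, at 100.8, 119.4 and 72.1 FPKM in PF4hLPS and at 115.6, 107.8 and 113.9 FPKM in PF. Its libraries overlapped in every comparison, with log2 fold changes of 0.30 (95% interval -0.16 to 0.75) in EtOH4hLPS against EtOH and -0.23 (-0.69 to 0.22) in PF4hLPS against PF. Ddah2 was far lower, at 0.675, 1.28 and 1.92 FPKM in EtOH4hLPS, 1.75, 1.55 and 1.51 FPKM in EtOH, 1.05, 0.334 and 1.29 FPKM in PF4hLPS and 0.675, 1.38 and 2.03 FPKM in PF. Its libraries also overlapped, with log2 fold changes of -0.22 (-0.82 to 0.38) in EtOH4hLPS against EtOH and -0.32 (-0.91 to 0.28) in PF4hLPS against PF. The lowest Ddah1 over Ddah2 ratio in any library was 52.8.

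Few genes passed the test for ethanol feeding in this tissue, and none of the 9 tested members did. In EtOH against PF, 0 of 9 members passed with limma, where 0.0284% of all tested genes did, and 0 members reached an unadjusted p of 0.05, where 3.69% of genes did. The 3 Slc7a2 libraries of EtOH were above those of PF and the 3 Gch1 libraries of EtOH were below those of PF, where 5.63% of genes were higher and 6.93% lower without overlap. The margins were thin: the lowest EtOH value of Slc7a2 was 1.106 FPKM beside a highest PF value of 1.105 FPKM, and the highest EtOH value of Gch1 was 0.2146 FPKM beside a lowest PF value of 0.2147 FPKM. Arg2 had the largest difference of the 9, at 0.56 ± 0.31 (adjusted p = 1.0), with overlapping libraries. In EtOH4hLPS against PF4hLPS, 0 of 9 members passed, where 0.0992% of genes did, and 1 member, Nos2, had an unadjusted p under 0.05, where 10.8% of genes did. Nos2 alone was lower without overlap and Gatm alone higher without overlap, where 5.59% of genes were lower and 5.34% higher.

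Nos2 averaged 3.08 ± 1.25 FPKM in EtOH4hLPS and 8.04 ± 2.78 FPKM in PF4hLPS (SD, n = 3 each), a ratio of 0.383. This was a log2 fold change of -1.15 ± 0.27, with an unadjusted limma p of 0.00128 and an adjusted p of 0.133, so the difference did not pass. The interaction of diet and LPS for Nos2 was -1.09 ± 0.38 (adjusted p = 0.988). For the interaction 0 members and 0.0284% of genes passed, and Nos2 alone of the members had an unadjusted limma p under 0.05, as 4.37% of genes did. Over both ethanol groups against both pair-fed groups it was -0.60 ± 0.19 (adjusted p = 0.288), beside 0 members and 0.319% of genes that passed; Nos2 alone of the members had an unadjusted limma p under 0.05, as 9.45% of genes did. Across 23 alternative settings the EtOH4hLPS against PF4hLPS difference of Nos2 lay between -1.43 and -0.86, with adjusted p between 0.0572 and 0.687. The lowest adjusted p came without the library of lowest GC slope in each group, an alternative added after seeing the data. The other 3 genes that LPS raised had differences near 0 between EtOH4hLPS and PF4hLPS: -0.01 ± 0.31 for Arg2, -0.01 ± 0.21 for Gch1 and -0.12 ± 0.16 for Slc7a2. The 95% intervals were -0.70 to 0.68 for Arg2, -0.47 to 0.45 for Gch1 and -0.46 to 0.23 for Slc7a2.

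Ratios within a library take out what scales all its genes alike, and these were chosen after the values were seen, so they are given as a description. The level of Nos2 over that of Arg2 was 0.177, 0.183 and 0.275 in the EtOH4hLPS libraries and 0.536, 0.4996 and 0.615 in the PF4hLPS libraries. The level of Nos2 over that of Gch1 was 0.649, 1.53 and 0.895 in the EtOH4hLPS libraries and 2.41, 2.40 and 2.90 in the PF4hLPS libraries. Both ratios were lower in all 3 EtOH4hLPS libraries than in any PF4hLPS library. In the saline groups the Nos2 over Arg2 ratio was 0.117, 0.0545 and 0.0513 in EtOH and 0.248, 0.0733 and 0.239 in PF, which overlapped.

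**Figure D3:**
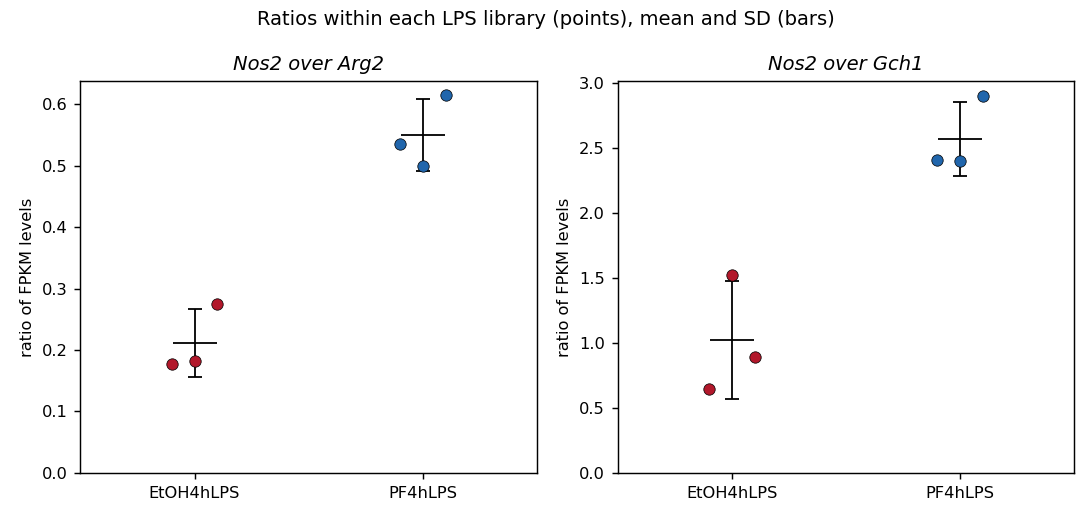
Ratio of the Nos2 level to the Arg2 level (left) and to the Gch1 level (right) in each EtOH4hLPS and PF4hLPS library (points), with the mean and SD of 3 libraries (bars). The EtOH4hLPS ratios to Arg2 lie between 0.177 and 0.275 and the PF4hLPS ratios between 0.4996 and 0.615.

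Within groups the same libraries were low for several members. The mean transcript GC content was 54.6% for Nos2, Ass1 and Asl, 58.7% for Nos3 and 59.4% for Ddah2, against 48.3% for Ddah1, 47.2% for Gch1, 46.1% for Arg2, 45.4% for Slc7a2 and 43.5% for Gatm, with a median of 48.8% over tested genes. The library of lowest GC slope was the lowest of its group for Ass1, Nos3 and Ddah2 in 4 of 4 groups. It was the lowest for Asl, Nos2 and Gch1 in 3 of 4, for Arg2 in 2 of 4, and for Slc7a2 and Gatm in 1 of 4. For Ddah1 it was the lowest in 0 of 4 groups, and it was the highest for Ddah1 and Gatm in 3 of 4 and for Nos2 in 1 of 4, the PF group. Deviations from the group means of Ass1 and Asl had a Pearson r of 0.912 over the 12 libraries, those of Asl and Ddah2 0.950, and those of Ass1 and Ddah1 -0.634. These points share their libraries and depth, so the values describe the libraries, and the part of GC content in them was not tested. Without those 4 libraries, Ass1 was at 0.14 ± 0.27 in EtOH4hLPS against EtOH and at 0.02 ± 0.27 in PF4hLPS against PF on the log2 scale, and the 3 members called on both diets kept their calls.

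**Figure D4:**
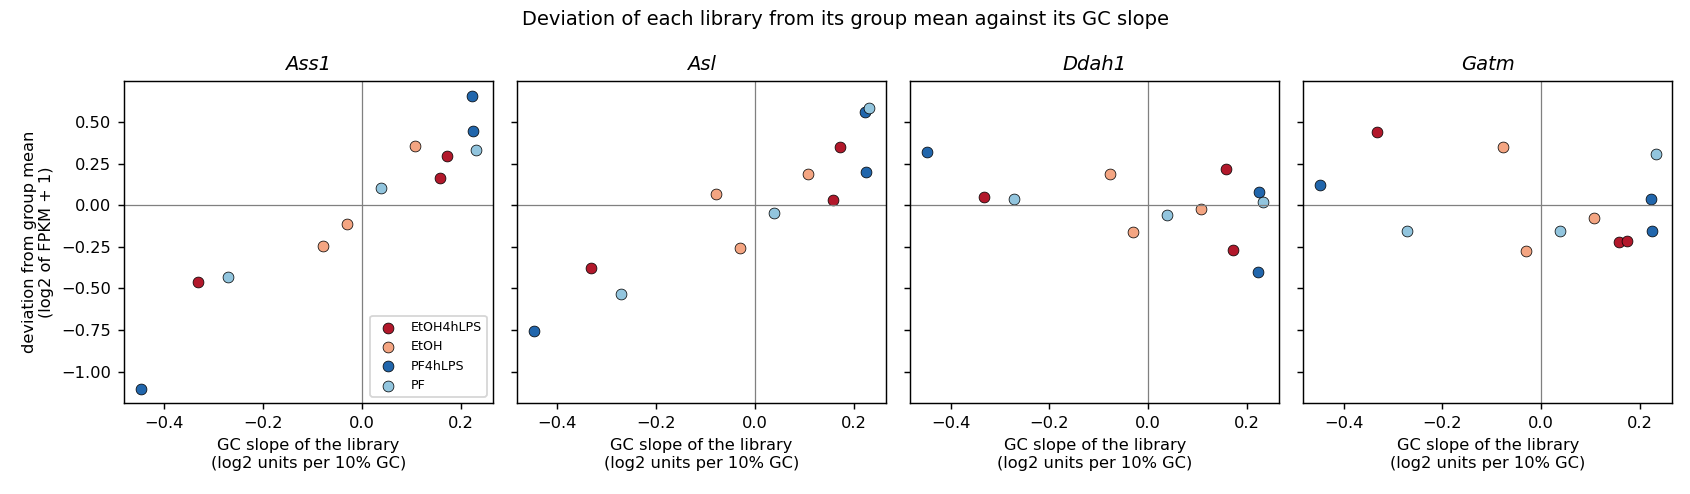
Deviation of each library from its group mean in log2(FPKM + 1) (y axis) for Ass1, Asl, Ddah1 and Gatm against the GC slope of the library in log2 units per 10% GC (x axis), coloured by group. Ass1 and Asl lie lowest in PF4hLPS library 2, at a slope of -0.45, while Ddah1 is highest there.

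The genes whose levels followed each raised member most closely over the 12 libraries were found by Pearson r of log2(FPKM + 1) among the 11674 tested protein-coding genes. For Nos2 they were Ido1 (r = 0.995), Serpina10 (0.988) and Oas3 (0.986). For Gch1 they were Myd88 (0.994), Adar (0.993) and Helz2 (0.991), and for Arg2 Dcun1d3 (0.980), Fyb2 (0.975) and Saa1 (0.973). Slc7a2 had less close neighbours in Tdrd7 (0.943), Arl4c (0.933) and Jpt2 (0.932). The 12 points share their depth and their split into LPS and saline libraries, so these values are a description.

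Of 56 other genes of the pathway, 43 were tested. In EtOH4hLPS against EtOH 3 of the 43 rose and 3 fell, where 10.7% of all tested genes rose and 6.39% fell. In PF4hLPS against PF 3 rose and 3 fell, where 11.3% rose and 6.89% fell, and shares so near those of all genes are no result about the list. The 3 that rose on each diet were Sat1 and Azin1, the called genes among 11 tested for ornithine and polyamines, and the transporter Slc7a1. Slc7a1 entered the test through the LPS libraries only. The 3 that fell on each diet were Cav1 and the guanylate cyclase subunits Gucy1a1 and Gucy1b1. The subunit Gucy1a2 did not pass with limma (adjusted p = 0.068 in EtOH4hLPS against EtOH and adjusted p = 0.0577 in PF4hLPS against PF). With equal FPKM totals the split was 1 higher and 7 lower in EtOH4hLPS against EtOH and 1 higher and 14 lower in PF4hLPS against PF. The median log2 fold change of the 43 was -0.03 in EtOH4hLPS against EtOH and -0.31 in PF4hLPS against PF. None of the 43 passed in EtOH against PF, in EtOH4hLPS against PF4hLPS or over both ethanol groups, where 0.0284%, 0.0992% and 0.319% of all tested genes did. An unadjusted limma p was under 0.05 for 4, 3 and 5 of the 43, beside 3.69%, 10.8% and 9.45% of all tested genes. With 1 library left out, Gucy1a1, Gucy1b1 and Sat1 kept both calls in every case and Cav1 and Azin1 kept the call on the ethanol diet, while Cav1 and Azin1 on the pair-fed diet and Slc7a1 on both lost it in some cases. The lowest count in PF4hLPS against PF was 3, without PF library 2 or PF library 3. With every library set to the same FPKM total, Azin1 and Slc7a1 were not called on either diet.

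Gucy1a1, the alpha subunit of soluble guanylate cyclase, which binds nitric oxide and makes cGMP, showed the largest fall of the list. It was at 1.31, 2.73 and 1.61 FPKM in EtOH4hLPS against 11.7, 14.3 and 15.6 FPKM in EtOH, and at 1.38, 1.11 and 0.912 FPKM in PF4hLPS against 10.5, 10.7 and 10.0 FPKM in PF. Its log2 fold change was -2.39 ± 0.20 (adjusted p = 3.819e-06) in EtOH4hLPS against EtOH and -2.42 ± 0.20 (adjusted p = 3.39e-06) in PF4hLPS against PF. Gucy1b1, the beta subunit, fell by 0.71 on the ethanol diet (adjusted p = 0.00395) and by 0.65 on the pair-fed diet (adjusted p = 0.00713) on the log2 scale. It was at 1.74 ± 0.13 FPKM in EtOH4hLPS against 3.499 ± 0.32 FPKM in EtOH and at 1.20 ± 0.14 FPKM in PF4hLPS against 2.46 ± 0.30 FPKM in PF (SD, n = 3 each). Cav1, a membrane protein that binds and inhibits the endothelial synthase, fell by 1.07 on the ethanol diet (adjusted p = 0.00637) and by 0.77 on the pair-fed diet (adjusted p = 0.0353). These 3 genes are known from vessel walls, and most endothelial markers fell with them. In EtOH4hLPS against EtOH 7 of the 10 markers fell and 1 rose, where 6.39% of all tested genes fell and 10.7% rose. In PF4hLPS against PF 8 of the 10 endothelial markers fell and 1 rose, where 6.89% of genes fell and 11.3% rose. The marker that rose was Cdh5 on both diets. Its log2 fold change was 1.26 (limma adjusted p = 0.00257) on the ethanol diet and 1.09 (adjusted p = 0.00651) on the pair-fed diet. Flt1 did not pass on either diet, at 0.20 on the ethanol diet and 0.03 on the pair-fed diet. Tek fell the most of the 10, at -2.48 on the ethanol diet and -2.55 on the pair-fed diet. The summed level of the 10 markers was 61.9 to 83.5 FPKM in EtOH4hLPS, 161.9 to 172.9 FPKM in EtOH, 49.2 to 70.8 FPKM in PF4hLPS and 132.1 to 175.7 FPKM in PF, with none at 0. The markers did not all change alike, so the sum does not stand for each of them. In bulk tissue fewer cells of a type and less RNA per cell cannot be told apart. Changes of single genes, such as the rise of Cdh5, were not separated from either. The part of the endothelial change in the falls of Gucy1a1, Gucy1b1 and Cav1 was not tested.

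Sat1, which acetylates polyamines for breakdown or export, was at 704.8, 816.2 and 767.8 FPKM in EtOH4hLPS against 233.4, 226.6 and 249.3 FPKM in EtOH, and at 610.1, 806.8 and 1090 FPKM in PF4hLPS against 332.9, 327.3 and 229.4 FPKM in PF. Its log2 fold change was 1.68 ± 0.23 (adjusted p = 0.000343) in EtOH4hLPS against EtOH and 1.47 ± 0.23 (adjusted p = 0.000884) in PF4hLPS against PF. Azin1, which frees ornithine decarboxylase from its inhibitor, rose by 0.85 ± 0.17 on the ethanol diet (adjusted p = 0.00484) and by 0.57 ± 0.17 on the pair-fed diet (adjusted p = 0.0388). Slc7a1, the constitutive arginine transporter, rose by 0.63 ± 0.18 on the ethanol diet (adjusted p = 0.031) and by 0.70 ± 0.18 on the pair-fed diet (adjusted p = 0.0187), and was named after its values were seen. It reached 1 FPKM in LPS libraries only, at most 1.86 FPKM, so it entered the test through the groups in which it was high. Odc1, ornithine decarboxylase, was at 245.9, 217.5 and 374.4 FPKM in EtOH4hLPS, 283.5, 230.3 and 252.9 FPKM in EtOH, 226.2, 513.1 and 734.6 FPKM in PF4hLPS and 508.1, 494.3 and 661.1 FPKM in PF. Its 3 EtOH libraries were below its 3 PF libraries, at a log2 fold change of -1.11 ± 0.37 (adjusted p = 1.0); this gene was also named after its values were seen.

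The other roles of the pathway held no called gene. The 6 BH4 genes beside Gch1, the 5 methyltransferase and ADMA genes and the 4 creatine genes were all tested and 0 passed with limma in any comparison. In PF4hLPS against PF an unadjusted limma p was under 0.05 for 0 of the 6, 2 of the 5 and 1 of the 4. Of all 14109 tested genes, 4397 had such a p there. In EtOH4hLPS against EtOH it was under 0.05 for 0 of each list, beside 3987 of the 14109 genes. None of the 5 genes listed under urea cycle and citrulline (Arg1, Cps1, Otc, Nags and Aldh18a1) reached the filter. That list leaves out the members Ass1 and Asl, which did. The neuronal synthase Nos1 reached at most 0.254 FPKM.

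**Figure D5:**
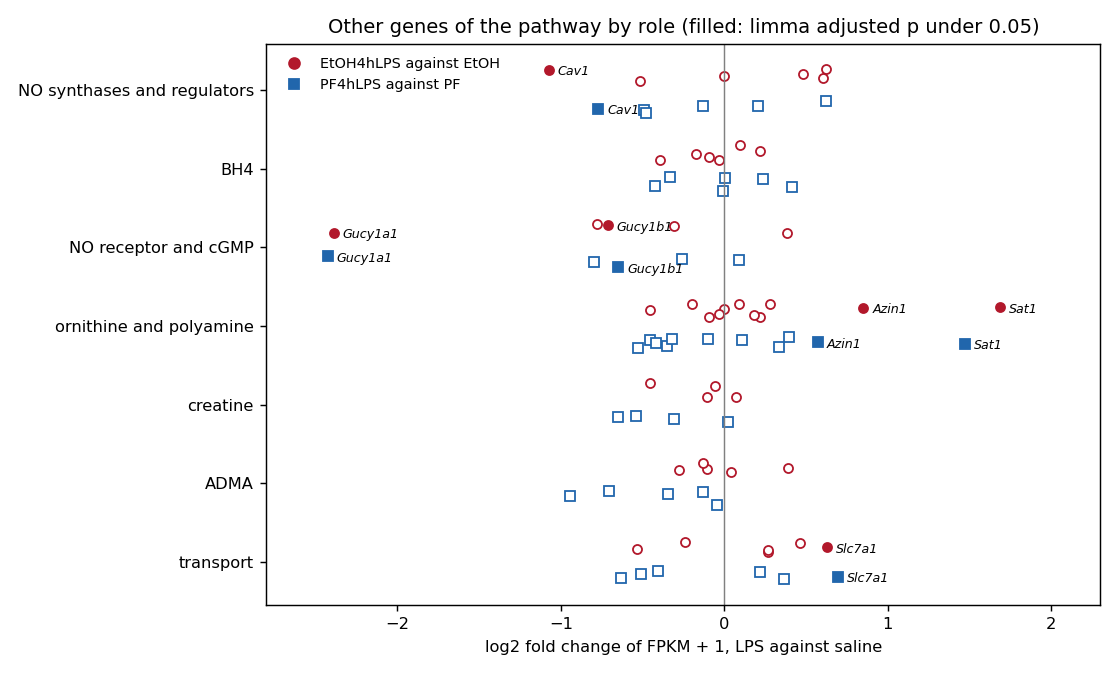
Log2 fold change of FPKM + 1 (x axis) of the 43 other tested pathway genes by role (rows) for EtOH4hLPS against EtOH (circles) and PF4hLPS against PF (squares), filled where the limma adjusted p was under 0.05. Gucy1a1 stands apart at -2.39 and -2.42, and Sat1 is the highest at 1.68 and 1.47.

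Most neutrophil markers rose after LPS, as did the called members, and most macrophage markers did not pass the test. The summed level of 10 neutrophil markers was 249.9 to 462.5 FPKM in EtOH4hLPS, 3.81 to 5.94 FPKM in EtOH, 290.6 to 660.8 FPKM in PF4hLPS and 3.78 to 6.35 FPKM in PF. Of the 7 tested, 6 rose on each diet, where 10.7% of all tested genes rose in EtOH4hLPS against EtOH and 11.3% in PF4hLPS against PF. Retnlg, Csf3r, Mmp8, Ngp and Lcn2 reached 1 FPKM in LPS libraries only, so they entered the test through the groups in which they were high. Camp was listed at 0 in all PF libraries, and Camp and Ly6g in all EtOH libraries. Lcn2, which tubule cells also make, held 68.8 to 247.3 FPKM of the sum in EtOH4hLPS and 88.1 to 235.7 FPKM in PF4hLPS. S100a8, a calcium-binding protein of neutrophils, averaged 75.7 ± 18.6 FPKM in EtOH4hLPS, 1.35 ± 0.57 FPKM in EtOH, 111.3 ± 54.9 FPKM in PF4hLPS and 1.48 ± 0.62 FPKM in PF (SD, n = 3 each). The summed macrophage markers were 34.9 to 104.3 FPKM in EtOH4hLPS, 17.6 to 23.4 FPKM in EtOH, 39.2 to 108.9 FPKM in PF4hLPS and 17.2 to 28.1 FPKM in PF, with none at 0. Cd14, the LPS co-receptor, which other cells also make, held 17.15 to 77.8 FPKM of the sum in EtOH4hLPS and 19.9 to 51.7 FPKM in PF4hLPS. The other 9 summed to 16.9 to 26.5 FPKM in EtOH4hLPS and 16.9 to 22.4 FPKM in EtOH, which overlapped, and to 19.3 to 58.4 FPKM in PF4hLPS and 16.5 to 27.0 FPKM in PF, which also overlapped. Of the 9 tested macrophage markers, 1 rose in EtOH4hLPS against EtOH (Cd14) and 3 rose in PF4hLPS against PF (Cd14, Itgam and Lyz2), beside the same shares of all tested genes. Itgam reached 1 FPKM in the PF4hLPS libraries only. The median below is that of the 9 tested macrophage markers. Their median log2 fold change was -0.13 in EtOH4hLPS against EtOH and 0.0088 in PF4hLPS against PF. Adgre1, the F4/80 antigen of macrophages, averaged 1.05 ± 0.43 FPKM in EtOH4hLPS, 1.24 ± 0.17 FPKM in EtOH, 1.14 ± 0.17 FPKM in PF4hLPS and 1.26 ± 0.10 FPKM in PF. Between EtOH4hLPS and PF4hLPS, where Nos2 was lower without overlap, 0 of the 7 neutrophil, 9 macrophage and 10 endothelial markers tested passed with limma. An unadjusted limma p was under 0.05 for 0, 2 and 2 of them, beside 10.8% of all tested genes. Their log2 fold changes ran from -0.58 to -0.07 for neutrophil, from -1.11 to 0.32 for macrophage and from 0.17 to 0.54 for endothelial markers. The median of the 9 macrophage markers there was -0.06. Itgam was at 0.294 to 0.733 FPKM in EtOH4hLPS and at 1.06 to 1.32 FPKM in PF4hLPS, without overlap. Lyz2 was at 6.39 to 13.9 FPKM in EtOH4hLPS and at 12.6 to 43.5 FPKM in PF4hLPS, with overlap. The part of leukocytes in the rise of Nos2, Gch1 and Arg2 was not tested.

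The summed level of 10 proximal tubule markers, which mark the cells that hold Ass1, Asl and Gatm, was 2336 to 2576 FPKM in EtOH4hLPS, 2396 to 2478 FPKM in EtOH, 1456 to 2110 FPKM in PF4hLPS and 2091 to 2701 FPKM in PF. With limma, 0 of the 10 passed in EtOH4hLPS against EtOH, where 10.7% of all tested genes rose and 6.39% fell. There 1 of the 10 had an unadjusted p under 0.05, beside 3987 of all 14109 tested genes. In PF4hLPS against PF 2 of the 10 fell and 0 rose, where 6.89% of genes fell and 11.3% rose. In EtOH4hLPS against PF4hLPS 0 of the 10 passed and 4 had an unadjusted limma p under 0.05, beside 10.8% of genes. The 10 log2 fold changes there ran from 0.12 to 1.52. The part of these markers in the values of Ass1, Asl and Gatm was not tested.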

How the data were processed

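RNA of kidney cortex was sequenced in 12 libraries with a stranded total RNA kit after ribosomal RNA removal, per the labels' protocols. The authors deposited 1 table of FPKM for 47719 genes, in which the median ratio of a library to the geometric mean of all ranged from 0.977 to 1.03, and no further scaling was applied. Build mm10, TopHat2 (version 2.0.4), Cuffnorm, Cuffdiff (2.1.1), Cufflinks (2.2.1) and FastQC (0.10.1) are listed, without roles, per the submitters' processing notes. No source used here gives the annotation release, strand setting or read totals, so no counting interval could be set. Each column was assigned to a library by the group abbreviation and replicate number in its name.

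Of the 47719 identifiers, 47305 matched GENCODE M21. The 14109 genes that reached 1 FPKM in 3 or more libraries were fitted on log2(FPKM + 1) with limma 3.58.1 (trend and robust prior, 1 mean per group over 12 libraries) in R 4.3.3, with Benjamini-Hochberg adjustment over all tested genes and a threshold of 0.05. The fitting code was run on simulated data with noise drawn independently for each gene. That setting lacks the GC slopes of these libraries and cannot speak to their effect. Group levels are means ± SD. Members and gene lists were chosen with earlier results of these data known. Named beside the members were pathway genes called after LPS with a log2 fold change of at least 0.7 in size, Arg1, Nos1, the 3 genes most like each called member, and set markers. Promoters came from RefSeq (GRCm38.p6). Alternatives varied the pseudocount, filter, scaling, variance model, fitted libraries, replicate block and each library left out.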

Additional observations from a re-analysis of the deposited data

How the results depend on the processing

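The same 3 members (Nos2, Gch1 and Arg2) were called in EtOH4hLPS against EtOH under all 23 alternatives, and the members called in PF4hLPS against PF were 4 except under equal FPKM totals and without the 4 libraries of lowest GC slope (added after seeing the data), where they were 3, without Slc7a2. Members called for ethanol or for the interaction stayed at 0. In PF4hLPS against PF the called pathway genes numbered 15 with equal totals, 10 with quantile normalization and 3 to 7 with 1 library left out, against 6; the 3 came without PF replicate 2 or PF replicate 3. For both ethanol groups they numbered 0 to 1 with 1 library left out, the 1 being Odc1 without PF4hLPS replicate 1. Uncalled values near 0 changed sign. In EtOH4hLPS against EtOH, Ass1 was -0.31 with equal totals, -0.0011 with median-ratio factors and -0.42 with quantile normalization, Ddah1 was -0.038 and -0.11 with equal totals and quantile normalization, and Asl was 0.061 without the 4 libraries. Without them Ass1 was 0.016 in PF4hLPS against PF and Nos2 0.040 in EtOH against PF, where quantile normalization gave 0.046. With 1 library left out, the ranges in EtOH4hLPS against EtOH were -0.34 to 0.027 for Asl, -0.12 to 0.26 for Ass1 and -0.37 to 0.027 for Gatm; in PF4hLPS against PF they were -0.47 to 0.19 for Asl, -0.65 to 0.23 for Ass1 and -0.22 to 0.011 for Gatm; for Nos2 in EtOH against PF the range was -0.11 to 0.021. The causes were not tested. The lack of read totals limits what can be said of genes under 1 FPKM, such as Nos3.

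Same-numbered libraries of different groups had correlations of -0.21 to 0.28 between their deviations (median -0.03, 18 pairs). Differently numbered ones had -0.35 to 0.391 (median 0.02, 36 pairs), and 3 of 12 libraries correlated best with their own number. These values show no pairing by replicate number, but with 3 libraries a group they cannot exclude it. With the replicate number as a block, 3 members were called in EtOH4hLPS against EtOH and 4 in PF4hLPS against PF, as without it, and the pathway genes called numbered 6 and 4, against 6 and 6. Calls over all genes were 1403 higher and 781 lower in EtOH4hLPS against EtOH and 1454 higher and 829 lower in PF4hLPS against PF. In EtOH4hLPS against PF4hLPS they were 1 higher and 1 lower with the block, against 5 and 9 without it. For both ethanol groups against both pair-fed groups they were 3 higher and 6 lower, against 14 and 31.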
